A study of Caenorhabditis elegans with 4 samples.

Results

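To examine how central carbon metabolism responded to Gengnianchun (GNC), a traditional Chinese medicine formula made of water extracts of crude herbs, 10 genes of glycolysis, gluconeogenesis and the glyoxylate cycle were followed in whole C. elegans. The genes are pck-1, pck-2, fbp-1, aldo-1, aldo-2, gpd-2, gpd-3, enol-1, pyk-1 and icl-1. They were chosen by name, all 10 were found among the 46766 genes of the deposited table, and all 10 passed the filter on low counts. RNA was taken from wild-type N2 (Bristol) worms that were 22 days old, given either GNC at 3.94 mg/mL or water as the vehicle, with 2 libraries in each group. Both groups were synchronized and were fed E. coli OP50 in S-complete liquid medium according to the sample labels, while the design text of the series names NGM. No transgene or mutation is named for either group. The labels do not say whether the 2 libraries of a group came from separate cultures, so the p-values measure only the spread between these libraries, which may be technical.

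Glycolysis breaks glucose down to pyruvate, and gluconeogenesis runs most of the same reactions backwards. The steps catalysed by aldolase (aldo-1 and aldo-2), glyceraldehyde-3-phosphate dehydrogenase (gpd-2 and gpd-3) and enolase (enol-1) are reversible and serve both directions. Pyruvate kinase (pyk-1) closes glycolysis, whereas phosphoenolpyruvate carboxykinase (pck-1 and pck-2) and fructose-1,6-bisphosphatase (fbp-1) serve gluconeogenesis and are not steps of glycolysis. The glyoxylate cycle lets nematodes build sugar from fat, and in C. elegans both of its special reactions, isocitrate lyase and malate synthase, lie in the single protein made by icl-1.

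The total count ranged from 18639631 to 21753657 fragments per library, and the 10 genes together held from 0.355% to 0.439% of it. Each of them had at least 1016 counts in every library. The counting error (Poisson SD) of the log2 difference between the 2 libraries of a group was 0.011 to 0.062, and the observed difference was above it for 9 of the 10 genes among control libraries and for 5 of the 10 among GNC libraries. Levels are given as TMM-scaled CPM, the fragment count scaled to library size after edgeR's correction for library composition. Where genes are compared with each other, FPKM is used, which also divides by gene length. A gene was said to rise or fall at a Benjamini-Hochberg adjusted p under 0.05 in edgeR's quasi-likelihood test over the 16341 genes tested. Counts of genes that also changed at least 2-fold, the threshold of the study, are given separately.

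GNC-treated worms had less mRNA of pck-1, gpd-2 and aldo-1, and none of the 10 genes rose. These 3 falls were all smaller than 2-fold. The other 7 genes did not pass the test, among them the abundant glyoxylate gene icl-1 and the gluconeogenic gene fbp-1. Of all genes tested, 40.4% passed this test, 20.5% lower and 19.8% higher with GNC. The 3 of 10 members that passed are a smaller share than the 40.4% in either direction, and as falls they are a larger share than the 20.5%. Neither difference in share was tested. No member passed with a 2-fold change, against 7.2% of all genes (4.97% higher and 2.23% lower). Before adjustment, the quasi-likelihood test gave p under 0.05 for 4 of the 10 members and for 7935 of the 16341 genes tested. The median log2 fold change of the 10 genes was -0.10, and it was 0.02 over all genes. In 6 of the 10 the groups did not overlap, 5 lower and 1 higher with GNC, where 71% of all genes did not overlap (34.5% lower and 36.5% higher). The balance of all calls depended on the scaling of the libraries. It was 3238 genes higher and 3356 lower as reported, 4349 and 2121 with library totals, and 2302 and 5155 with libraries rescaled to the same median.

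**Figure D1:**
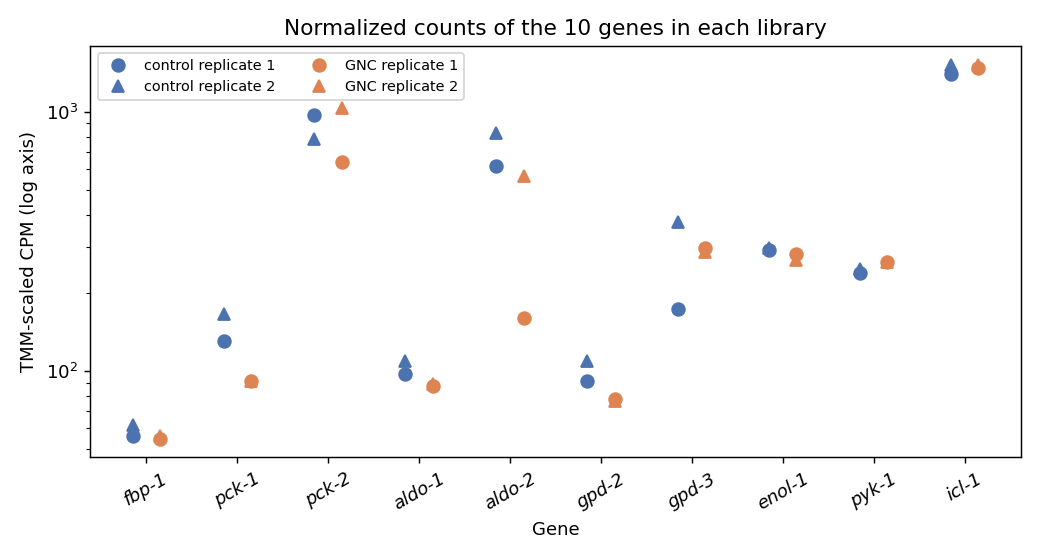
TMM-scaled CPM (log axis) of the 10 genes in each of the 4 libraries, with control in blue and GNC in orange, circles for replicate 1 and triangles for replicate 2. The GNC libraries lie below both control libraries for pck-1, while 1 library stands apart for aldo-2 (160.6 CPM) and for gpd-3 (173 CPM).

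Per unit of gene length, icl-1 and aldo-2 were the most abundant of the 10 mRNAs in control worms. The FPKM of aldo-2 was 278 and 362 and that of icl-1 was 271 and 288 in the control libraries, so their order was not separated by the spread. The gene gpd-3 followed with 115.4 and 244, and pck-2 with 121 and 95.2. Between 56.5 and 88.0 FPKM lay enol-1, aldo-1, gpd-2 and pyk-1, of which enol-1 was the highest. The lowest levels were those of pck-1, at 25.9 and 32.2 FPKM, and of fbp-1, at 18.04 and 19.5 FPKM. With GNC the FPKM of pck-1 was 19.4 and 19.3, and that of fbp-1 was 18.8 and 19.2, so the 2 genes no longer differed by more than 1 FPKM in either library.

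The carboxykinase genes, which turn oxaloacetate into phosphoenolpyruvate at the entry to gluconeogenesis, did not move alike. The gene pck-1 (WBGene00021043, chromosome III, 62887 to 66261) had 129.9 and 165 CPM in control worms and 91.8 and 91.2 CPM with GNC. Both GNC libraries were lower than both control libraries and nearly equal to each other. This was a log2 fold change of -0.69 (standard error, SE, 0.10; adjusted p = 0.00048 by edgeR's test), or 0.619 of the control level. The fall kept its direction in each of 14 other settings, between -0.51 and -0.85, and lost the call with no filter on low counts (adjusted p = 0.0634).

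The more abundant pck-2 (WBGene00011232, chromosome I, 7866132 to 7872080) had 969.5 and 782 CPM in control worms and 637 and 1035 CPM with GNC. The GNC libraries lay on either side of the control libraries. Its log2 fold change was -0.07 (SE 0.18, adjusted p = 0.804, 95% interval -0.48 to 0.35). The direction rested on single libraries, since it was 0.24 without GNC replicate 1 and -0.46 without GNC replicate 2, and the latter passed the test (adjusted p = 0.003). The gene overlaps suro-1 by 497 bases, and no source says that the counting was stranded, but suro-1 held only 107 to 244 counts per library against 14360 to 21557 for pck-2.

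The third carboxykinase gene, pck-3, rose from 13.4 and 15.1 CPM to 21.4 and 25.7 CPM with GNC (log2 fold change 0.73, SE 0.12, adjusted p = 0.00122). Because the reads of similar genes could be split by the counting, the 3 carboxykinase genes were also summed. The sum was 1113 and 962 CPM in control worms and 751 and 1152 CPM with GNC, a log2 ratio of -0.13 with overlapping groups. Since pck-2 makes up most of this sum, the sum followed pck-2 and not pck-1.

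The other gluconeogenic gene of the 10, fbp-1 (WBGene00001404, chromosome I, 2580935 to 2586124), which takes a phosphate from fructose-1,6-bisphosphate, had 55.9 and 61.8 CPM in control worms and 54.8 and 56.1 CPM with GNC. The groups overlapped, and the log2 fold change was -0.09 (SE 0.07, adjusted p = 0.366, 95% interval -0.25 to 0.07). A change of 2-fold in either direction lies outside this interval. With libraries rescaled to the same median, fbp-1 passed as a fall of -0.22 (adjusted p = 0.0316).

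Among the reversible steps, aldolase gave the widest spread. Aldolase splits fructose-1,6-bisphosphate into its triose phosphates. The gene aldo-2 (WBGene00017166, chromosome III, 5874672 to 5876625) had 619 and 824 CPM in control worms, 160.6 CPM in GNC replicate 1 and 566 CPM in GNC replicate 2. Both GNC libraries were lower than both control libraries, but they differed 3.53-fold from each other. The log2 fold change was -0.99 (SE 0.42, adjusted p = 0.0849), so aldo-2 did not pass the test although its point value was close to 2-fold. Without GNC replicate 1 the value was -0.35 (adjusted p = 0.0296), and without GNC replicate 2 it was -2.17 (adjusted p = 1.2e-10). The size of the difference was therefore set by 1 library. It also passed with libraries rescaled to the same median (adjusted p = 0.0458) and with edgeR's exact test (adjusted p = 0.0468).

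The second aldolase gene, aldo-1 (WBGene00011474, chromosome III, 13563341 to 13564990), had 97.4 and 109.4 CPM in control worms and 87.6 and 89.4 CPM with GNC. The groups did not overlap and the difference was small, with a log2 fold change of -0.23 (SE 0.07, adjusted p = 0.0239). This call was lost under upper quartile normalization, library totals, expression-dependent offsets, limma on FPKM and no filter, and also without control replicate 2 (adjusted p = 0.133) or GNC replicate 1 (adjusted p = 0.0697). The low count of aldo-2 in GNC replicate 1 had no matching rise of aldo-1 there. The ratio of the FPKM of aldo-2 to that of aldo-1 was 4.17 and 4.94 in control worms, 1.202 in GNC replicate 1 and 4.16 in GNC replicate 2. The summed aldolase level was 716 and 934 CPM in control worms and 248 and 656 CPM with GNC.

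The genes gpd-2 and gpd-3 encode near-identical forms of glyceraldehyde-3-phosphate dehydrogenase, which oxidises the triose phosphates. They lie next to each other on chromosome X in an operon whose first gene is mai-1, an ATPase inhibitor gene. The gene gpd-2 (WBGene00001684, 3113434 to 3114771) fell from 91.6 and 109.3 CPM to 78.2 and 76.4 CPM, with a log2 fold change of -0.38 (SE 0.08, adjusted p = 0.00484). It was lower in both GNC libraries, and the call was lost with limma on FPKM (adjusted p = 0.0943) and with no filter (adjusted p = 0.138). The operon gene mai-1 fell by a like amount, from 18.4 and 16.4 CPM to 11.9 and 14.1 CPM (log2 fold change -0.43, SE 0.12, adjusted p = 0.0194). For mai-1 the call was lost without control replicate 1 (adjusted p = 0.0938) and without GNC replicate 1 (adjusted p = 0.133), and it overlaps gpd-2 by 90 bases.

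The more abundant gpd-3 (WBGene00001685, 3112083 to 3113382) did not pass the test. It had 173 CPM in control replicate 1, 375 CPM in control replicate 2, and 298 and 288 CPM with GNC. The GNC libraries lay between the control libraries, and the log2 fold change was 0.10 (SE 0.25, adjusted p = 0.793). Leaving out either control library gave opposite results that each passed the test. Without control replicate 1 the log2 fold change was -0.35 (adjusted p = 0.00293), and without control replicate 2 it was 0.76 (adjusted p = 4.81e-05). The direction of gpd-3 was therefore not determined by these libraries.

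The ratio of the FPKM of gpd-3 to that of gpd-2 was 1.92 in control replicate 1 and between 3.48 and 3.87 in the other 3 libraries. The low value of gpd-3 in control replicate 1 thus stood apart from its operon neighbour and was not matched by a higher gpd-2. The sum of gpd-2 and gpd-3 was 265 and 484 CPM in control worms and 376 and 365 CPM with GNC. The paralogs gpd-1 and gpd-4 on chromosome II, which encode the other forms of the enzyme, both fell, with log2 fold changes of -0.51 (SE 0.06, adjusted p = 0.000252) and -0.41 (SE 0.06, adjusted p = 0.000942). Thus 3 of the 4 gpd genes fell, where 20.5% of all genes passed as lower. The counting could have split reads between all 4. The sum of the 4 genes was 467 and 700 CPM in control worms and 528 and 513.7 CPM with GNC, a log2 ratio of -0.16 (-0.06 with library totals) with overlapping groups.

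**Figure D2:**
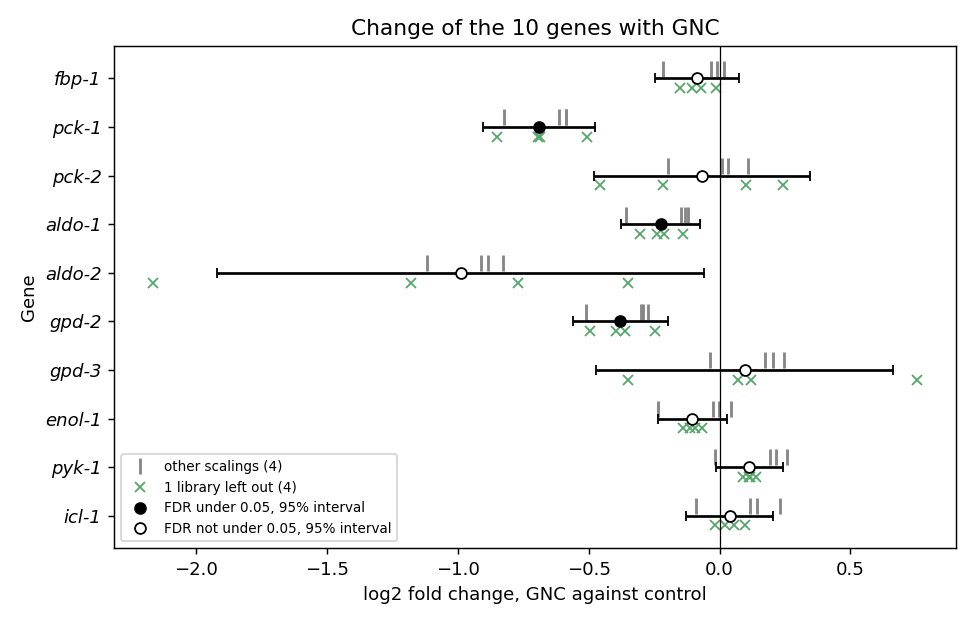
log2 fold change of each of the 10 genes, GNC against control, with its 95% interval from edgeR (circles, filled where the adjusted p is under 0.05), the values under 4 other scalings (grey ticks) and with each library left out (green crosses). The crosses of gpd-3 reach from -0.35 to 0.76 and those of aldo-2 from -2.17 to -0.35, while those of pck-1 stay between -0.85 and -0.51.

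The lower steps of glycolysis varied little. Enolase (enol-1, WBGene00011884, chromosome II, 8930985 to 8933799), which forms phosphoenolpyruvate, had 293 and 298 CPM in control worms and 282 and 269 CPM with GNC. Both GNC libraries were slightly lower, with a log2 fold change of -0.10 (SE 0.06, adjusted p = 0.192, 95% interval -0.24 to 0.03). It passed as a fall of -0.23 with libraries rescaled to the same median (adjusted p = 0.00927). Pyruvate kinase (pyk-1, WBGene00009126, chromosome I, 9168432 to 9177497) was the member whose GNC libraries both lay above the control libraries, at 263.0 and 263.5 CPM against 238 and 248 CPM. Its log2 fold change of 0.11 (SE 0.06) did not pass the test as reported (adjusted p = 0.142). It passed with upper quartile normalization (0.19, adjusted p = 0.0237), library totals (0.22, adjusted p = 0.0117), expression-dependent offsets (0.26, adjusted p = 0.00508) and limma on FPKM (0.22, adjusted p = 0.0323), and it was -0.02 with libraries rescaled to the same median. The paralog pyk-2 rose from 94.3 and 94.5 CPM to 112.0 and 108 CPM (log2 fold change 0.22, SE 0.06, adjusted p = 0.011), a call that was lost without GNC replicate 1 (adjusted p = 0.0667) and with libraries rescaled to the same median (adjusted p = 0.231).

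The glyoxylate gene icl-1 (WBGene00001564, chromosome V, 724207 to 728103) had the highest normalized count of the 10, with 1395 and 1517 CPM in control worms and 1478 and 1514 CPM with GNC. The GNC values fell within the range of the control values. The log2 fold change was 0.04 (SE 0.07, adjusted p = 0.71), and its 95% interval from -0.13 to 0.21 leaves out rises of more than 1.15-fold. With expression-dependent offsets, which remove the trend of the fold change with abundance, it was 0.23 and passed the test (adjusted p = 0.0178).

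The difference between replicates was beyond the 99th percentile of abundant genes for 3 of the 10 genes, in at least 1 group. Among the 4772 genes with a mean of at least 1000 counts, the median difference between the replicates was 0.065 on the log2 scale among control and 0.058 among GNC libraries. The difference for aldo-2 between the GNC libraries was 1.82, the second largest of these genes. The difference for gpd-3 between the control libraries was 1.11, which ranked 4, and that for pck-2 between the GNC libraries was 0.70, which ranked 20. For comparison, the 99th percentile was 0.40 among control libraries and 0.47 among GNC libraries. Among control libraries aldo-2 was also above it (0.41, which ranked 46). The members called as falls stayed below it. Their differences among control libraries were 0.35 for pck-1 (rank 81), 0.25 for gpd-2 (rank 207) and 0.17 for aldo-1 (rank 571). Among GNC libraries these differences were 0.008, 0.033 and 0.028. The libraries that stood apart were not the same, since aldo-2 and pck-2 were low in GNC replicate 1 and gpd-3 was low in control replicate 1. Genes within 4000 bases did not show differences of this size, for example F01F1.3 beside aldo-2, which held 422 and 408 counts in the GNC libraries. Beside gpd-3, gpd-2 was lower in control replicate 1 as well, but by less (1665 against 2094 counts in control replicate 2). Values of some genes that all cells use were also uneven or at 0 in the deposited table. Of the 12 mitochondrial protein genes, all were listed at 0 in at least 1 library and 6 in all 4, and ctc-3, a cytochrome c oxidase gene, held 23414 and 20308 counts with GNC but 0 in each control library. Whether the counts of aldo-2, pck-2 and gpd-3 in their low libraries are complete was not tested, and these low values are read with that limit.

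**Figure D3:**
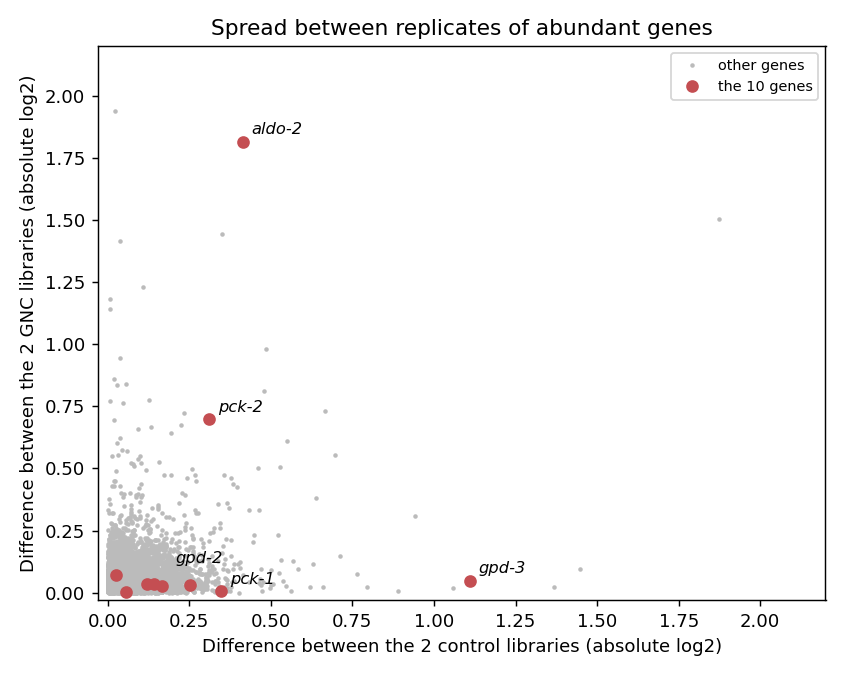
Absolute log2 difference between the 2 control libraries (horizontal axis) and between the 2 GNC libraries (vertical axis) for the 4772 genes with a mean of at least 1000 counts, with the 10 genes in red. Most genes lie near the origin, aldo-2 (1.82) and pck-2 (0.70) stand high on the GNC axis, and gpd-3 (1.11) stands far out on the control axis.

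The rest of central carbon metabolism was read from lists of other genes of the same pathways. Of 49 such genes tested, 8 rose, 19 fell and 22 did not pass, with a median log2 fold change of -0.15 against 0.02 for all genes. Of all genes 19.8% passed on the higher side and 20.5% on the lower side. The split changed with the scaling, as did the balance of all calls given above. For the 49 genes it was 10 higher and 10 lower with library totals, 10 and 11 with expression-dependent offsets and 6 and 29 with libraries rescaled to the same median. Calls of a 2-fold change were limited to the trehalase gene tre-5.

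In glycolysis, 3 of the other 13 genes rose and 4 fell, where 19.8% of all genes passed as higher and 20.5% as lower. The largest changes were a fall of hxk-1, a hexokinase gene, from 139.9 and 157 CPM to 97.7 and 83.2 CPM (log2 fold change -0.71, SE 0.08, adjusted p = 0.000196), and a rise of pfk-1.2, a phosphofructokinase gene, from 23.8 and 24.7 CPM to 38.1 and 41.7 CPM (log2 fold change 0.72, SE 0.08, adjusted p = 0.000202). The lactate dehydrogenase gene ldh-1 fell with a log2 fold change of -0.33. The other early genes hxk-2, hxk-3, gpi-1 and pfk-1.1 had log2 fold changes between -0.15 and 0.02 that did not pass.

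In the steps after pyruvate, the calls were falls. Of 5 pyruvate dehydrogenase genes, pdha-1 (log2 fold change -0.45) and dlat-1 (-0.24), which encode subunits of the complex, fell and none rose. Of 15 genes listed for the TCA cycle 9 fell and none rose, where 20.5% of all genes passed as lower. The falls included cts-1, the citrate synthase gene, from 592.1 and 592.5 CPM to 423 and 431 CPM (log2 fold change -0.47, SE 0.06, adjusted p = 0.000332). The isocitrate dehydrogenase gene idhg-1 (-0.37), the oxoglutarate dehydrogenase complex gene dlst-1 (-0.34), the fumarase gene fum-1 (-0.30) and the malate dehydrogenase gene mdh-1 (-0.30) fell as well. The other malate dehydrogenase gene of the list, mdh-2, did not pass (0.006, adjusted p = 0.948 by edgeR's test). The calls of sdha-1 and sdhb-1 were narrow (adjusted p = 0.0467 and 0.0456). Their falls, and those of idha-1 and sucg-1, were not followed singly under other settings. The falls of dlat-1 and mdh-1 did not pass with library totals (adjusted p = 0.0771 and 0.0781) or expression-dependent offsets (adjusted p = 0.18 and 0.138), and mdh-1 did not pass without GNC replicate 1 (adjusted p = 0.107).

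Trehalose is a major sugar of nematodes, and its genes moved both ways. The trehalose-6-phosphate synthase genes tps-1 (from 108 and 106 CPM to 144 and 139.5 CPM, log2 fold change 0.41) and tps-2 (from 124 and 145 CPM to 176 and 173 CPM, log2 fold change 0.38) rose. Of the trehalases, which cut trehalose into glucose, tre-2 rose (log2 fold change 0.33) and tre-5 fell from 36.0 and 35.6 CPM to 16.1 and 17.9 CPM (log2 fold change -1.07, SE 0.09, adjusted p = 4.26e-05). The glycogen phosphorylase gene pygl-1 fell slightly (-0.25, adjusted p = 0.011), a call lost under 5 of the other settings and without control replicate 2 (adjusted p = 0.0517). In the pentose phosphate pathway, T25B9.9, which encodes 6-phosphogluconate dehydrogenase, rose from 141.9 and 144 CPM to 184 and 189.6 CPM (log2 fold change 0.39, SE 0.06, adjusted p = 0.000563). The transketolase gene tkt-1 fell (-0.22, adjusted p = 0.02), and that call was lost without control replicate 2 (adjusted p = 0.0881), GNC replicate 1 (adjusted p = 0.0593) or GNC replicate 2 (adjusted p = 0.0587).

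**Figure D4:**
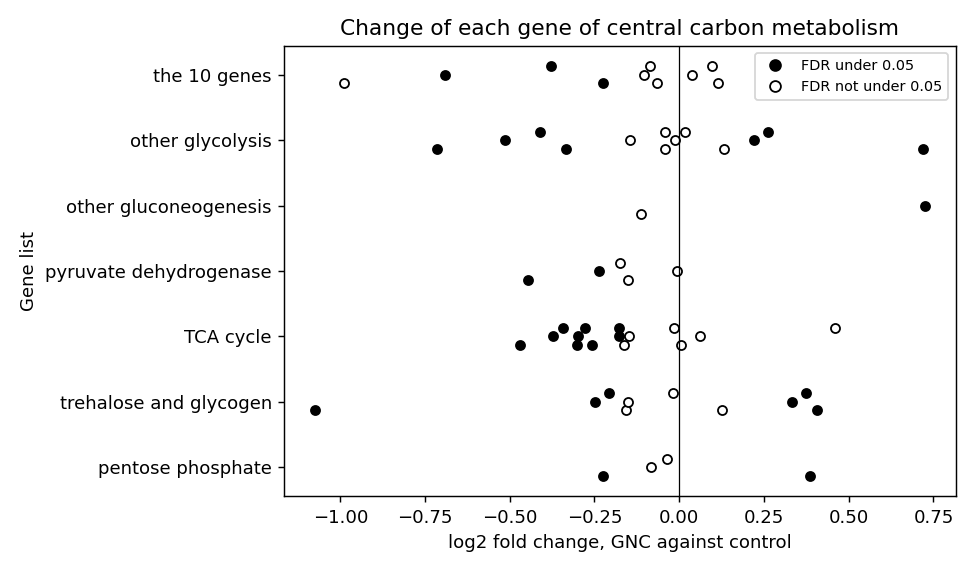
log2 fold change, GNC against control, of each gene (1 circle per gene, filled where the adjusted p is under 0.05) in the 10 genes and in 6 lists of related pathways; the vertical offset within a list only separates the circles. The filled circles of the TCA cycle and pyruvate dehydrogenase lists all lie below 0, and those of the glycolysis and trehalose lists lie on both sides.

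Markers of tissues and germ cells differed between the groups as well. In whole worms, fewer cells of a type and less RNA per cell cannot be told apart. Of 6 markers of oocytes and embryos, such as rme-2, the yolk receptor gene, 5 fell and none rose, and their summed level was 762 and 790 CPM in control worms and 455 and 465 CPM with GNC. Of 6 sperm markers 4 rose and none fell, with a sum of 135 and 140 CPM against 204 and 215 CPM. For comparison, 19.8% of all genes passed as higher and 20.5% as lower. The sums were 1000 and 1160 CPM against 1097 and 1128 CPM for muscle, 1369 and 1523 CPM against 1176 and 1140 CPM for intestine, 550 and 643 CPM against 618 and 635 CPM for neurons, and 181 and 193 CPM against 175 and 182 CPM for the 3 tested epidermal markers. The other 3 epidermal markers, dpy-7, rol-6 and bli-1, had 1 to 9 counts per library. None of the 36 markers was at 0 in any library. The intestine markers went both ways. Their lower sum came from the yolk protein gene vit-2 (log2 fold change -0.39, adjusted p = 0.00171) and the protease gene asp-1 (-0.63, adjusted p = 0.000592), while elt-2, an intestinal transcription factor gene (0.25, adjusted p = 0.0184), and the actin gene act-5 (0.32, adjusted p = 0.00586) rose, and the median of the 6 was 0.03. Of the muscle markers 2 rose and 1 fell, and of the neuron markers 0 passed edgeR's test and 0 had an unadjusted p under 0.05. The part of these shifts in the falls of pck-1, gpd-2, aldo-1 and the TCA cycle genes, or in the rises of pck-3 and pfk-1.2, was not tested.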

How the data were processed

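Total RNA of whole worms was sequenced on an Illumina HiSeq instrument in 4 libraries, 2 per group. The processing notes of the submitters name CASAVA 1.8, TopHat2 2.1.0 and Cuffdiff and the build WBcel235; which of them made the counts is not given in the sources used here. Whether the table holds the full count of every abundant gene is not known, since mitochondrial genes are listed at 0 in some libraries. The authors deposited whole-number counts of fragments per gene, without normalization, and FPKM values, that is counts scaled to gene length and library size. Positions are those of the deposited table. All 10 genes were found by identifier in the Ensembl annotation of the same build (release 115), where the start or end of each differs from the table.

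The counts were filtered (filterByExpr), scaled (TMM) and tested with the quasi-likelihood F-test of edgeR 4.0.16 (R 4.3.3). The model held treatment alone, with adjustment over all 16341 genes tested. The procedure was also run on simulated data with the same spread for every gene and few changed genes. That run does not cover genes with uneven replicates, such as aldo-2 and gpd-3. CPM in the text are TMM-scaled; intervals are 95% intervals of the log2 fold change. The spread between replicates was taken on log2(CPM + 0.5). The common biological coefficient of variation was 6.67%. The alternatives were other scalings, DESeq2 1.42.0, edgeR's exact test, limma 3.58.1 on log2(FPKM + 0.1) for genes of at least 1 FPKM in at least 2 libraries, no filter, a filter of 10 counts in every library, a replicate block and each library left out, 14 in all.

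The members, lists and alternatives were chosen with earlier results of these data known. Named genes are the 10 members, mai-1, the paralogs gpd-1, gpd-4, pck-3 and pyk-2, and up to 5 genes per other pathway list with the largest changes among those that passed; other genes named were chosen after their values were seen. Gene and protein sequences were not used here.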

Additional observations from a re-analysis of the deposited data

How the results depend on the processing

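Groups of 2 libraries are too small to test for an outlying one, and the error of each gene borrows from that of the other genes. Over all genes, the log2 fold change had a median of 0.02 as reported, 0.12 with library totals and -0.11 with libraries rescaled to the same median, and members are to be read against it. Of the 10 genes, 3 fell and none rose as reported. The number that rose was 1 under each of upper quartile normalization, library totals and limma on FPKM, and 2 with expression-dependent offsets. In the same order, 4033, 4349, 3218 and 2961 of all genes rose under these settings, against 3238 as reported. The number that fell was 6 with libraries rescaled to the same median, 1 with limma on FPKM and 0 with no filter on low counts, and 1 of those with rescaled libraries reached 2-fold. Leaving out a library leaves 1 library in its group, so only effect sizes are given for these fits. The log2 fold change then ranged from -0.85 to -0.51 for pck-1, from -0.50 to -0.25 for gpd-2 and from -0.30 to -0.14 for aldo-1.

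Of the 49 other pathway genes, 19 fell as reported, 10 with library totals, 29 with rescaled libraries, 11 with expression-dependent offsets, 8 with limma on FPKM and 5 with no filter, where 5 rose in place of 8. Of all genes, 3238 rose and 3356 fell. The number that fell was 2121 with library totals, 5155 with rescaled libraries, 1411 with limma on FPKM and 1042 with no filter, where 1573 rose and 185 fell by 2-fold. With expression-dependent offsets 482 rose by 2-fold, against 812. With no filter 29615 genes were tested. The cause of these differences was not tested.

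Directions of members that did not pass reversed in places. For pck-2 the log2 fold change was 0.010 with upper quartile normalization, 0.034 with library totals, 0.0019 with limma on FPKM and 0.11 with expression-dependent offsets, and from -0.46 to 0.24 with a library left out. For gpd-3 it was -0.035 with rescaled libraries and from -0.35 to 0.76 with a library left out. For fbp-1 it was 0.018 with limma on FPKM and 0.017 with library totals. It was -0.017 for pyk-1 and -0.092 for icl-1 with rescaled libraries, 0.044 for enol-1 with expression-dependent offsets, and from -0.016 to 0.099 for icl-1 with a library left out.

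Control and GNC libraries carry the same replicate numbers. Across genes, the deviations of libraries with the same number had a correlation of r = 0.04. Genes are not independent samples, so this value cannot show whether libraries with the same number shared a culture or batch. With the replicate number as a block, 4 members fell, 1 of them (aldo-2, log2 fold change -1.23) by 2-fold, and none rose.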

Other observations

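The aconitase gene aco-2, chosen after its values were seen, had a spread like that of gpd-3. Its counts were 9081 and 16607 in control worms and 21349 and 19435 with GNC, or 499.7 and 867 CPM against 948 and 933 CPM. The low library was control replicate 1, as for gpd-3. The difference between the control libraries was 0.79 on the log2 scale, and that between the GNC libraries was 0.022. Both GNC libraries were higher than both control libraries. The log2 fold change of 0.46 (SE 0.19, adjusted p = 0.0801) did not pass, while 9 other genes of the TCA cycle list fell.

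Several genes beside the members passed the test, where 40.4% of all genes did so. Among them were spt-4 beside pck-1 (log2 fold change -0.48, adjusted p = 0.00255 by edgeR's test) and F25H5.2 beside pyk-1 (0.70, adjusted p = 0.00248). A further pair, also chosen after the values were seen, changed more. The gene T05D4.2, next to aldo-1, had 121 and 113 counts in control worms and 42 and 43 with GNC (log2 fold change -1.67, adjusted p = 0.000195). The gene suro-1, which overlaps pck-2, had 5.89 and 6.21 CPM in control worms and 10.8 and 10.04 CPM with GNC (log2 fold change 0.79, adjusted p = 0.00154).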
